A study of Sus scrofa with 4 samples.

Results

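Adrenergic receptors, protein kinase A (PKA) and the phosphodiesterases that degrade cAMP were followed through the differentiation of pig subcutaneous preadipocytes. The genes were the adrenergic receptors ADRB1, ADRB3 and ADRA2A, the PKA subunits PRKAR1A, PRKAR2B and PRKACB, and the phosphodiesterases PDE4B, PDE4D and PDE7B. They were taken by gene symbol from the protein-coding rows, which gave 9 of the 16192 mRNAs in the series. The rule itself uses no measured value, but the genes were chosen with earlier results of these data known. Counts over them beside those of all mRNAs are therefore a description only. The cells came from the subcutaneous fat of male Chinese Erhualian piglets in the first week of life. D0 was the confluent culture before induction. Between D0 and D2 the medium held dexamethasone, insulin and isobutylmethylxanthine (IBMX), a broad inhibitor of phosphodiesterases. Between D2 and D4 it held insulin without the other inducers, and the cells then stayed in growth medium to D8. Equal amounts of RNA from 3 piglets were pooled into 1 library for each stage, so there were 4 libraries without replicates. The stage cannot be told apart from its library, no test between stages was possible, and all intervals given here cover counting error only.

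In fat cells, noradrenaline acts on beta receptors, which couple through Gs to adenylyl cyclase and raise cAMP, and on alpha-2 receptors, which couple through Gi and lower it. cAMP binds the regulatory subunits of PKA and frees the catalytic subunits, which phosphorylate perilipin and hormone-sensitive lipase at the lipid droplet and so start lipolysis. Phosphodiesterases end the signal by hydrolysing cAMP. IBMX is used in adipogenic media because the cAMP it preserves supports the early steps of adipocyte differentiation, and several phosphodiesterase genes are known to be induced by cAMP itself.

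The libraries held between 54128151 and 75387428 fragments, and 70.9% to 78.8% of these lay on mRNAs. Levels are FPKM, fragments scaled by the length of the gene model and by the library total, so that levels of different genes can be compared per length. The number of fragments behind each level was recovered from the deposited values. A gene was counted as 2-fold higher or lower when its ratio on log2(FPKM + 0.01) reached 2 in either direction and its FPKM was 1 or more in 3 or 4 libraries, which 9191 mRNAs met. Of the 9 genes, 5 met this level (PRKAR1A, PRKAR2B, PRKACB, PDE4B and PDE7B). The other genes, ADRB1, ADRB3, ADRA2A and PDE4D, did not, and their ratios are given outside the counts.

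Markers of the cell types that the cultures could hold were also read. The 6 adipocyte markers (ADIPOQ, FABP4, PLIN1, LPL, CIDEC and PPARG) summed to 106 FPKM at D0, 388 at D2, then 1553 at D4 and 2029 at D8. The D8 sum was mostly FABP4, at 1557 FPKM, and 4 of the 6 markers were highest at D4. The 4 preadipocyte and fibroblast markers found (PDGFRA, PDGFRB, THY1 and COL1A1) summed to 452 FPKM at D0, 594 at D2, then 459 at D4 and 363 at D8. PDGFRA, the receptor that marks preadipocytes, had 75.8, 189, 149 and 60.8 FPKM. The 5 smooth muscle and pericyte markers summed to 3438 FPKM at D0, 366 at D2, then 233 at D4 and 2823 at D8, most of it ACTA2. D0 and D8 were close in ACTA2, at 2907 and 2762 FPKM, but not in DES, at 436 and 35.7 FPKM, or CNN1, at 94.3 and 24.2 FPKM. Summed immune markers lay between 0.397 and 1.27 FPKM and summed endothelial markers between 1.16 and 2.63 FPKM, with the endothelial cadherin CDH5 at 0 in 3 libraries. In pooled bulk RNA, fewer cells of a type and less RNA per cell cannot be told apart.

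The receptors that open the pathway were close to the detection limit. ADRB1, the beta-1 receptor, is a gene of a single exon on chromosome 14 of Sscrofa11.1 (124400330 to 124401739, plus strand). It had 0.0564 FPKM at D0, 0 at D2, then 0.248 at D4 and 0 at D8, from 6, 0, 26 and 0 fragments. D4 was thus the highest library, and its 95% counting interval of 0.162 to 0.363 FPKM lay above those of the other three stages. The level at D4 was 4.39-fold that at D0, with a counting interval of 0.82 to 3.71 on the log2 scale. With a result of 0 set to the 3 fragments it allows in each library, the D4 level was at least 6.41-fold higher than that at D2 and at least 6.31-fold higher than that at D8. These folds leave out the counting error at D4, and the log2 interval of the ratio started at 2.28 for D4 against D2 and ended at -2.26 for D8 against D4. D0, D2 and D8 were not separated by their intervals.

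ADRB3, the beta-3 receptor of adipocytes (chromosome 15, 48468803 to 48478370, plus strand), was read in 1 library only. It had 4 fragments at D4, or 0.0161 FPKM, and 0 fragments at D0, D2 and D8. These counts do not separate any stages, because the counting interval of D4, 0.00440 to 0.0413 FPKM, overlaps those of the libraries at 0.

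ADRA2A, the alpha-2A receptor that lowers cAMP (chromosome 14, 121469572 to 121470924, plus strand), was more abundant than ADRB1 and ADRB3 at every stage. Its level was 0.951 FPKM at D0, 0.417 at D2, then 0.586 at D4 and 0.573 at D8, from 97, 31, 59 and 42 fragments. The D0 level was the highest, and the log2 ratio of D2 to D0 was -1.17, with a counting interval of -1.82 to -0.59. D2, D4 and D8 were not separated from each other by the counting intervals of their ratios. The log2 ratios of D4 and D8 to D0 were -0.69 and -0.72.

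**Figure D1:**
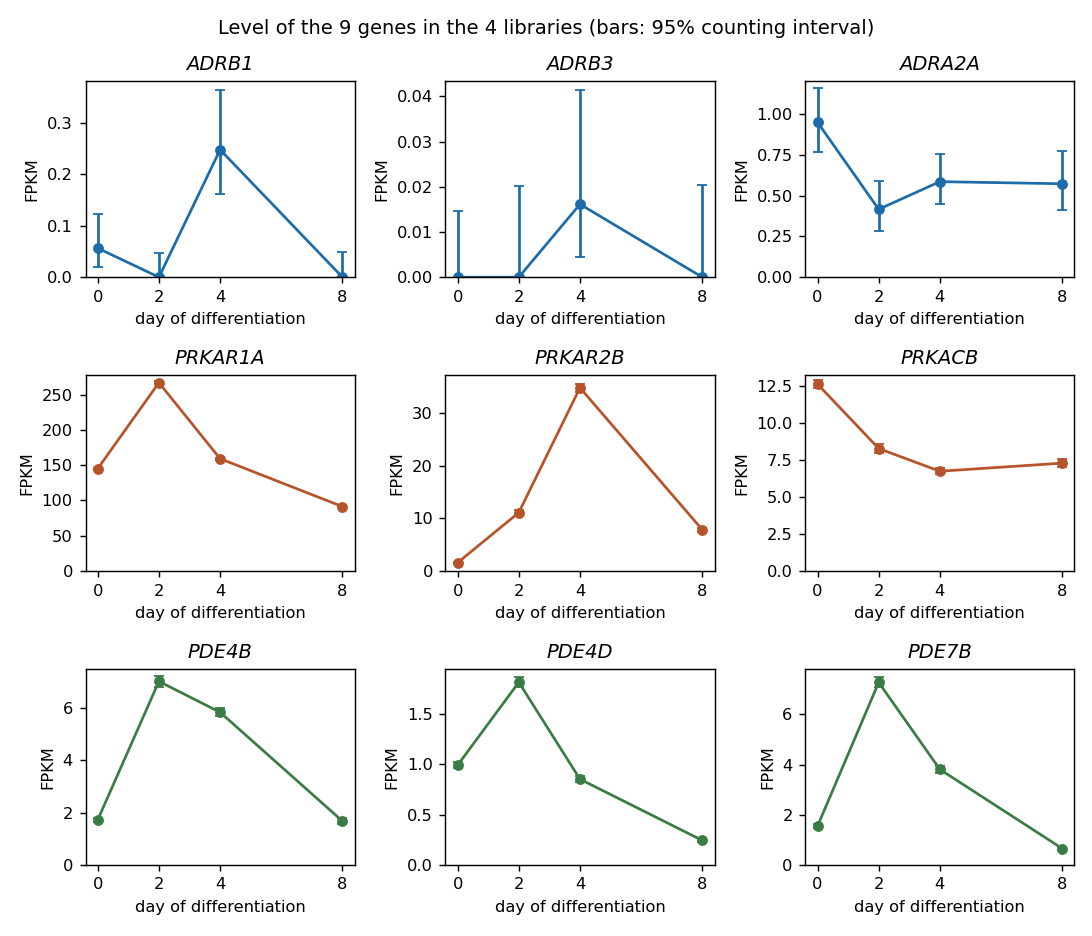
Level in FPKM (y axis, linear, with its own scale in each panel) against day of differentiation (x axis) for the 3 receptors (top), the 3 PKA subunits (middle) and the 3 phosphodiesterases (bottom). Points are single libraries and bars are 95% counting intervals. The 3 phosphodiesterases and PRKAR1A have their highest point at D2 and their lowest at D8, and PRKAR2B peaks at D4.

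PKA is a tetramer of 2 regulatory and 2 catalytic subunits. PRKAR1A encodes the type I alpha regulatory subunit, which is mostly in the cytosol and restrains the catalytic subunits when cAMP is low (chromosome 12, 11662344 to 11681490, minus strand). It was the most abundant of the 9 genes at each stage, at 145 FPKM at D0, 267 at D2, then 159 at D4 and 91.3 at D8. These levels rested on 19656 to 58396 fragments, ranked between the 93.5 and 97.7 percentiles of the mRNAs counted, and spanned 2.92-fold. No ratio of PRKAR1A reached 2 in the comparisons made. The closest was D2 against D0, with a log2 ratio of 0.88 (0.86 to 0.90), and it was followed by -0.75 for D4 against D2 and -0.80 for D8 against D4.

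PRKAR2B encodes the type II beta regulatory subunit, the form known to be prominent in adipose tissue and brain (chromosome 9, 106851044 to 106957519, plus strand). It had the widest span of the 7 genes read in every library. Its level was 1.58 FPKM at D0, 11.1 at D2, then 34.8 at D4 and 7.83 at D8, from 394, 2018, 8560 and 1402 fragments. The stages do not overlap in their counting intervals, and D4 stood 22.0-fold above D0 (log2 ratio 4.45, 4.32 to 4.61). The level was 7.02-fold higher at D2 than at D0 and 3.14-fold higher at D4 than at D2. It was 4.44-fold lower at D8 than at D4, which left D8 at 4.96-fold the D0 level. Among the mRNAs counted, PRKAR2B moved from the 8.68 percentile at D0 to the 83.5 percentile at D4. ADIPOQ, PLIN1, LPL and PPARG of the adipocyte markers were likewise highest at D4, with PLIN1 at 215 FPKM at D4 and 90.3 at D8, whereas FABP4 and CIDEC were highest at D8. The part that a changing share of adipocytes has in this result was not tested.

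PRKACB encodes the catalytic subunit beta (chromosome 6, 129520397 to 129636207, minus strand). It had 12.6 FPKM at D0, 8.27 at D2, then 6.74 at D4 and 7.28 at D8, from 2814 to 6792 fragments. D0 was the highest library and the range was 1.87-fold, the narrowest of the 5 genes that met the level. The log2 ratios to D0 were -0.61 at D2, then -0.91 at D4 and -0.79 at D8. None reached 2-fold. The 3 PKA subunits thus had their highest levels in 3 different libraries, D2 for PRKAR1A, D4 for PRKAR2B and D0 for PRKACB.

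The make-up of the PKA mRNAs followed from these levels and does not depend on how the libraries were scaled. Of the summed FPKM of the 4 regulatory subunits, PRKAR1A made up 68.6% at D0, 83.3% at D2, then 66.2% at D4 and 55.5% at D8. PRKAR2B made up 0.747%, 3.46%, 14.5% and 4.76%, so that PRKAR1A exceeded it 91.9-fold at D0 and 4.57-fold at D4. PRKAR2A, the type II alpha subunit, took 30.3%, 13.0%, 19.1% and 39.4%. The gene model behind PRKAR2A was short, at 1236 bases, and by fragments it took 11.9%, 4.49%, 7.03% and 17.0%, so that PRKAR2B, with 14.3% of fragments at D4, exceeded it there. Thus the type I form was the majority at each stage, and PRKAR2B took its largest share at D4. PRKACB was 69.5% of the summed FPKM of PRKACA and PRKACB at D4 and between 82.7% and 86.0% at the other stages. Summed over genes, the regulatory subunits exceeded these catalytic subunits 14.2-fold at D0, 32.1-fold at D2, then 24.8-fold at D4 and 19.4-fold at D8. These are ratios of RNA levels in FPKM, not of proteins. By fragments, without division by length, the excess was smaller at each stage. Regulatory and catalytic subunits had 50045 and 7245 fragments at D0, 63363 and 3499 at D2, 59974 and 4159 at D4, and 25476 and 2985 at D8.

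**Figure D2:**
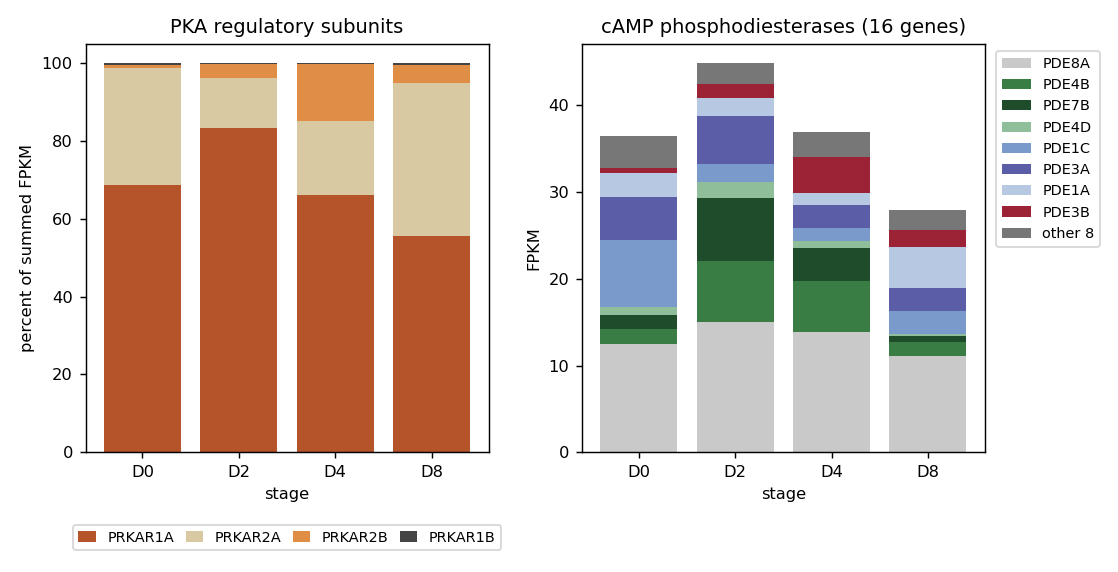
Left: percent of the summed FPKM of the 4 PKA regulatory subunit genes (y axis) at each stage (x axis). Right: FPKM of 16 cAMP phosphodiesterase genes stacked at each stage, with 8 further genes summed. PRKAR2B takes 14.5% of the left bar at D4, and the green segments of PDE4B, PDE7B and PDE4D sum to 16.1 FPKM at D2.

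The 3 phosphodiesterases shared the order of their extremes, with the highest level at D2 and the lowest at D8. PDE4B, a cAMP-specific enzyme of the PDE4 family (chromosome 6, 146167262 to 146720105, minus strand), had 1.72 FPKM at D0, 7.03 at D2, then 5.84 at D4 and 1.67 at D8. It was 4.08-fold higher at D2 than at D0 (log2 ratio 2.02, 1.94 to 2.11) and was 3.49-fold lower at D8 than at D4. D2 and D4 formed a high pair, and D0 and D8 were not separated (log2 ratio -0.04, -0.16 to 0.07). PDE4B held between 1081 and 5186 fragments.

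PDE7B, a cAMP-specific enzyme of another family (chromosome 1, 27958261 to 28425754, minus strand), had 1.54 FPKM at D0, 7.27 at D2, then 3.81 at D4 and 0.649 at D8. It was 4.72-fold higher at D2 than at D0 (log2 ratio 2.23, 2.15 to 2.32). From D2 to D4 it was 1.91-fold lower, just short of the 2-fold mark, and at D8 it was 5.87-fold lower than at D4. The D8 level was also below D0, 2.38-fold. The 4 stages did not overlap in their intervals, and the span was 11.2-fold. In rank among the mRNAs counted it went from the 8.19 percentile at D0 to 48.2 at D2 and 0.316 at D8.

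PDE4D, the sister enzyme of PDE4B (chromosome 16, 37897300 to 39406534, minus strand), had 0.993 FPKM at D0, 1.82 at D2, then 0.853 at D4 and 0.243 at D8. It fell outside the counts because only D2 reached 1 FPKM, although it held 3462, 4628, 2935 and 608 fragments. The gene model behind its FPKM was 46246 bases long, which divides many fragments into a low level. Its log2 ratio was 0.87 for D2 against D0, -1.08 for D4 against D2 and -1.77 for D8 against D4. D8 was 4.09-fold below D0. Within the summed FPKM of PDE4A to PDE4D, PDE4D made up 26.1%, 18.5%, 10.9% and 8.89% in the order of stages, and PDE4B 45.4%, 71.3%, 74.3% and 61.3%. By fragments, without division by length, PDE4D was the majority at D0 with 62.7%, stood level with PDE4B at D2 with 48.3% against 48.1%, and made up 31.0% at D8. Levels and fragments thus rank PDE4B and PDE4D differently at D0 and D2.

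Together, PDE4B, PDE4D and PDE7B summed to 4.26 FPKM at D0, 16.1 at D2, then 10.5 at D4 and 2.56 at D8. This was 11.7%, 35.9%, 28.4% and 9.18% of the summed FPKM of 16 cAMP phosphodiesterases. The other 13 genes summed to between 25.4 and 32.2 FPKM. PDE8A, an enzyme known to be insensitive to IBMX, ranked the highest by FPKM at each stage, with at most 15.1 FPKM. By fragments, without division by length, PDE8A was first at no stage. First were PDE1C at D0 (38.7% of the fragments of the 16 genes), PDE7B at D2 (21.0%), PDE4B at D4 (22.5%) and PDE1A at D8 (30.6%). PDE4B, PDE4D and PDE7B each took a larger share by fragments than by FPKM at every stage. At D2 these shares were 19.6%, 19.7% and 21.0% of fragments. PDE4B and PDE7B were high at D2 and D4, where ACTA2 was low, at 324 and 225 FPKM, and where PDGFRA was high, while PDE4D was high at D2 alone. The summed preadipocyte and fibroblast markers were also highest at D2 and lowest at D8, but of the single markers only PDGFRA had both extremes there. PDGFRB was highest at D4, at 28.8 FPKM, and THY1 at D0, at 105 FPKM. COL1A1 was highest at D2, at 283 FPKM, and lowest at D4, at 193 FPKM. The part of these cells in the result was not tested. IBMX was in the medium up to D2, when the 3 genes were at their highest, but the medium, the time and the library cannot be told apart.

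Ordered by level, PRKAR1A was first in each library and the receptors ADRB1 and ADRB3 were last. At D0 PRKACB was second, followed by PDE4B, PRKAR2B and PDE7B, whose neighbours in the order were not separated by their counting intervals. At D2 PRKAR2B stood second at 11.1 FPKM (10.6 to 11.6), above PRKACB, and PDE7B and PDE4B were not separated. At D4 the order was PRKAR1A, PRKAR2B, PRKACB, PDE4B, PDE7B and PDE4D, each apart from the next. At D8 PRKAR2B, at 7.83 FPKM (7.43 to 8.25), was not separated from PRKACB, at 7.28 (7.02 to 7.56), and PDE7B was not separated from ADRA2A. PRKAR2B therefore passed from the level of PDE4B and PDE7B at D0 to the second place at D2 and D4, and was not separated from PRKACB at D8.

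Counted over the 5 genes that met the level, 3 were 2-fold higher at D2 than at D0, namely PRKAR2B, PDE4B and PDE7B, and none was lower. Over all 9191 mRNAs, 16.8% reached 2-fold in this comparison, with 6.67% of all mRNAs higher and 10.1% lower. The median log2 ratio was 2.02 over the 5 genes and -0.03 over all mRNAs. From D2 to D4 PRKAR2B alone was 2-fold different, and it was higher, where 5.08% of mRNAs reached 2-fold, 4.24% higher and 0.838% lower. PDE7B lay at the mark there, at a log2 ratio of -0.93. Dividing each library by a factor from the median of its gene ratios (median-ratio scaling) moved it to -1.02, past the mark. Equalising the protein-coding sum also placed it just past the mark.

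From D4 to D8 the same 3 genes were 2-fold lower, PRKAR2B, PDE4B and PDE7B. Of all mRNAs, 14.5% reached 2-fold, 4.43% higher and 10.1% lower. The median log2 ratio was -1.80 over the 5 genes and -0.21 over all mRNAs, so the median mRNA itself stood lower at D8 on the deposited scale. PRKACB was the exception, with a log2 ratio of 0.11 (0.04 to 0.18). Under the median-ratio scaling, 591 mRNAs were higher and 546 lower in this comparison in place of 407 and 928. The ratios became -1.94 for PRKAR2B, -1.59 for PDE4B and -2.33 for PDE7B.

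The comparisons of D4 and of D8 with D0 share the D0 library with that of D2. In D4 against D0 the same 3 genes were 2-fold higher, by 4.45 for PRKAR2B, 1.76 for PDE4B and 1.30 for PDE7B on the log2 scale, where 19.2% of mRNAs reached 2-fold (10.4% higher and 8.81% lower). In D8 against D0 PRKAR2B was higher, at a log2 ratio of 2.30, and PDE7B lower, at -1.24, and 7.28% of mRNAs reached 2-fold, 3.60% higher and 3.68% lower. PDE4B, which had been high at D2 and D4, was not separated from D0 at D8. Its small ratio changed sign, to 0.11, under the median-ratio scaling. PRKAR1A and PRKACB stood below D0 by -0.67 and -0.79, while the median mRNA stood at -0.18.

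**Figure D3:**
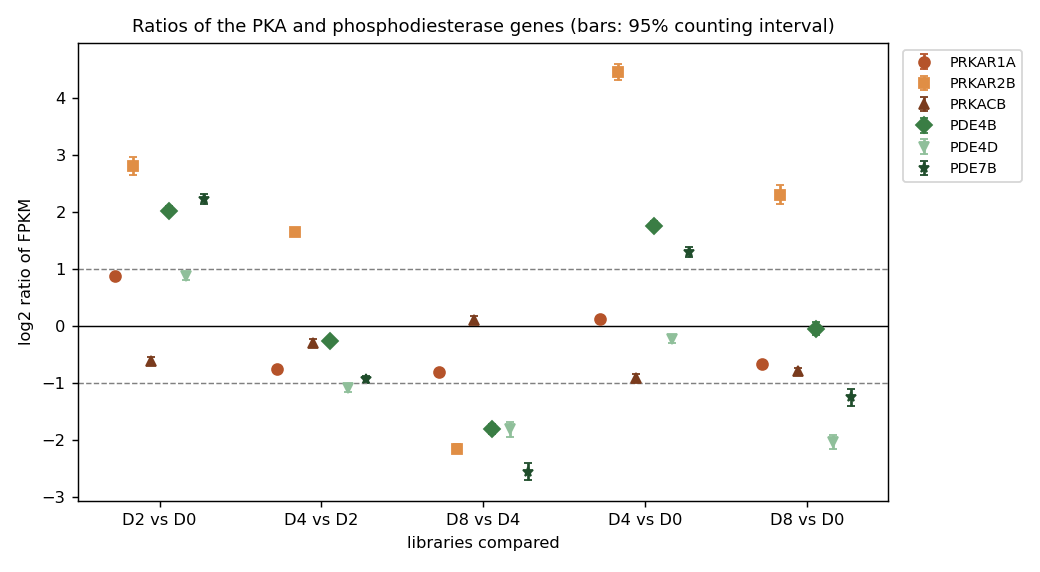
Log2 ratio of FPKM (y axis, without a pseudocount) in the 5 comparisons of libraries (x axis) for the PKA subunits and phosphodiesterases, including PDE4D. Bars are 95% counting intervals. Dashed lines mark a ratio of 2 in either direction. PRKAR2B, PDE4B and PDE7B lie above the upper line for D2 against D0 and below the lower line for D8 against D4.

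Of the 5 genes that met the level, 3 (PRKAR1A, PDE4B and PDE7B) had their highest level at D2 and their lowest at D8. Over the 9191 mRNAs, this order of extremes was found in 822, or 8.94%. PDE4D, outside these counts, had the same order. Among PDE4B, PDE7B and the PKA subunits that met the level, PDE4B and PDE7B were the most alike, with a root mean square difference of 0.75 over the 3 log2 ratios to D0. PRKAR2B and PRKACB differed the most, by 4.08. The mRNAs most like each gene by the same measure were ARL9 (0.08) and ZFAND2A (0.16) for PRKAR1A, GPX3 (0.29) and ACER2 (0.30) for PRKAR2B, and PAFAH1B3 and LSAMP (both 0.04) for PRKACB. For PDE4B they were GSTK1 and ANGPTL2 (both 0.14), and for PDE7B ANGPTL4 (0.25) and LPCAT2 (0.39). The profile of PRKACB was common, with 294 mRNAs within 0.25, whereas PRKAR2B had none and PDE7B 1 within that distance. The likeness rests on 3 ratios that share the D0 library, and it is a description only.

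Of 90 other genes of the pathway that were looked for, 84 were found and 47 met the level. Between D0 and D2, 9 of these were 2-fold higher and 6 lower, where 16.8% of all mRNAs reached 2-fold, and their median log2 ratio was -0.13. Between D2 and D4, 4 were higher and 2 lower, where 5.08% of all mRNAs reached 2-fold. Between D4 and D8, 3 were higher and 13 lower, beside 4.43% and 10.1% of all mRNAs. Against D0, 12 were higher and 8 lower at D4, and 6 higher and 5 lower at D8, where 19.2% and 7.28% of all mRNAs reached 2-fold.

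Among the other PKA genes, the inhibitors that bind free catalytic subunits stood out. PKIA, the inhibitor peptide alpha, had 81.7 FPKM at D0, 23.2 at D2, then 12.7 at D4 and 48.0 at D8, and PKIG, the gamma form, had 4.86 at D0, 2.14 at D2 and 3.98 at D8. Both were 2-fold lower at D2 than at D0 and 2-fold higher at D8 than at D4, the reverse of PRKAR2B. The remaining genes of this list that met the level were PRKAR2A and PRKACA, and PRKACA was 2-fold lower at D8 than at D4. By FPKM, PKIA thus stood above the summed catalytic subunits 5.49-fold at D0 and 1.31-fold at D4. By fragments it had 22301 against 7245 at D0, but 3409 against 4159 at D4.

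Of the 13 other cAMP phosphodiesterases, 5 met the level, and 1 was 2-fold higher and 1 lower in each comparison. Of all mRNAs, 5.08% to 19.2% reached 2-fold in these comparisons. The lower one of D8 against D4, PDE3B, was lost under the median-ratio scaling, and PDE1C was then 2-fold higher. PDE3B, the enzyme through which insulin lowers cAMP in fat cells, had 0.501 FPKM at D0, 1.61 at D2, then 4.13 at D4 and 2.03 at D8, and so peaked at D4 as PRKAR2B did. PDE1C, a calmodulin-dependent enzyme, had 7.63 FPKM at D0 and at most 2.63 FPKM afterwards. The phosphodiesterases therefore did not move together, although PDE8A and PDE3A also had their highest level at D2, at 15.1 and 5.59 FPKM.

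Upstream of PKA, 3 of 10 adenylyl cyclases met the level. ADCY7 was 2-fold lower at D2 than at D0, with 7.45 FPKM at D0 and between 2.03 and 3.02 afterwards. Of 4 G protein alpha subunits that met the level, GNAI2, which inhibits adenylyl cyclase, had 53.5 FPKM at D0, 25.5 at D2, then 21.4 at D4 and 35.3 at D8. Of 6 genes of receptor desensitisation, RGS2, a regulator of G protein signalling, had 3.08, 25.9, 10.9 and 3.39 FPKM and was 2-fold higher at D2 than at D0. ARRB2, a beta-arrestin, was 2-fold lower. Of 12 A-kinase anchoring proteins, which place PKA at organelles, 10 met the level. None of these 10 was 2-fold different between D0 and D2 or between D4 and D8, where 16.8% and 14.5% of all mRNAs were. AKAP6, which did not meet the level, had 4.72, 0.603, 0.785 and 1.58 FPKM, from 5543, 516, 909 and 1331 fragments. AKAP13 was higher and AKAP3 lower at D4 than at D0. No effector or CREB factor of the 4 that met the level was 2-fold different in any comparison, beside 5.08% to 19.2% of all mRNAs.

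Genes known to be induced by cAMP and PKA targets at the lipid droplet were read next. Their mRNA levels do not measure PKA activity. The medium up to D2 also held dexamethasone and insulin, and the part of cAMP in these levels was not tested. Of 8 cAMP-induced genes that met the level, 4 were 2-fold higher at D2 than at D0 (SIK1, FOS, PCK1 and RGS2) and none lower, where 6.67% of all mRNAs were higher, and the median log2 ratio was 1.25. From D4 to D8, 7 of the 8 were 2-fold lower, with a median of -1.80, beside 10.1% of all mRNAs and a median of -0.21. FOS was no longer among them under the median-ratio scaling. SIK1, a kinase that restrains CREB coactivators, had 1.11, 3.33, 3.48 and 0.923 FPKM, and PCK1, which makes glycerol phosphate for triglyceride in fat cells, had 1.40, 5.19, 9.39 and 1.06. All 4 lipid droplet genes that met the level were 2-fold higher at D2 than at D0 and 2-fold lower at D8 than at D4. The latter held without ABHD5 under the median-ratio scaling. CIDEC, a gene of this list that did not meet the level, went the other way from D4 to D8. It had 0.271, 0.780, 5.01 and 54.6 FPKM, from 31, 65, 564 and 4477 fragments. LIPE, hormone-sensitive lipase, had 0.808, 7.15, 31.9 and 10.3 FPKM, and PLIN1, perilipin and also an adipocyte marker, had 2.28, 36.1, 215 and 90.3. Like PRKAR2B, both were highest at D4 and remained above D0 at D8, while SIK1 and PCK1 were somewhat below it.

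**Figure D4:**
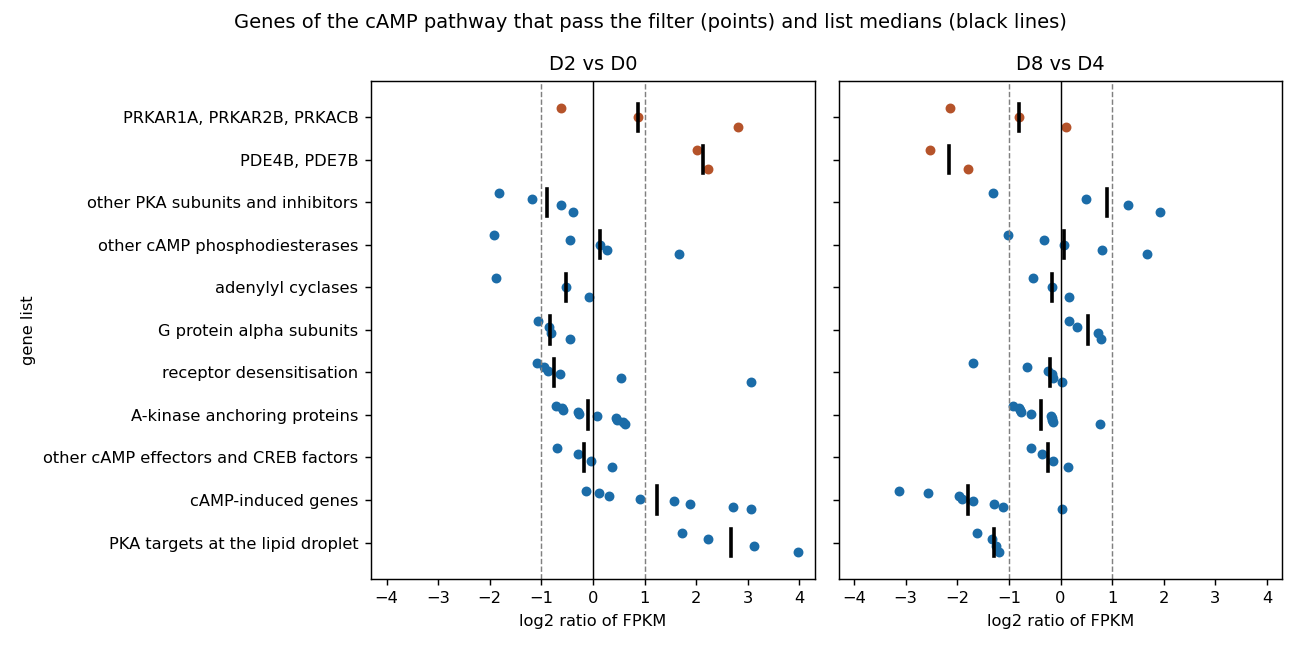
Log2 ratio of FPKM (x axis, pseudocount 0.01) of each gene of the cAMP pathway that met the level (points), by gene list (y axis), for D2 against D0 (left) and D8 against D4 (right). Black lines are list medians and dashed lines mark 2-fold. The cAMP-induced list has a median of 1.25 on the left and -1.80 on the right.

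The loci were read for circular RNAs and overlapping features, which were not used to choose the genes. Circular RNAs arise by back-splicing, and their level is given as SRPBM, junction reads scaled by all mapped reads. PRKAR1A gave 2, PDE4D 1 and the other 7 genes none, where the files keep circular RNAs of at least 2 junction reads. The more abundant, ssc_circ_0005537 (chromosome 12, 11669306 to 11671052, minus strand), had 1437 SRPBM at D0, 901 at D2, then 944 at D4 and 966 at D8, from 224, 124, 159 and 115 junction reads. Per 1000 mRNA fragments of PRKAR1A this was 5.15 at D0, 2.12 at D2, then 3.38 at D4 and 5.85 at D8. The circular RNA was thus lowest relative to its mRNA at D2, where the mRNA was highest, and the intervals of D2 (1.77 to 2.53) and D8 (4.83 to 7.02) did not overlap. The second, ssc_circ_0005538 (11669306 to 11672541), had 22, 24, 27 and 9 reads. The PDE4D circular RNA, ssc_circ_0007773 (chromosome 16, 37909535 to 37911906), had 6 reads at D0 and none listed later.

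**Figure D5:**
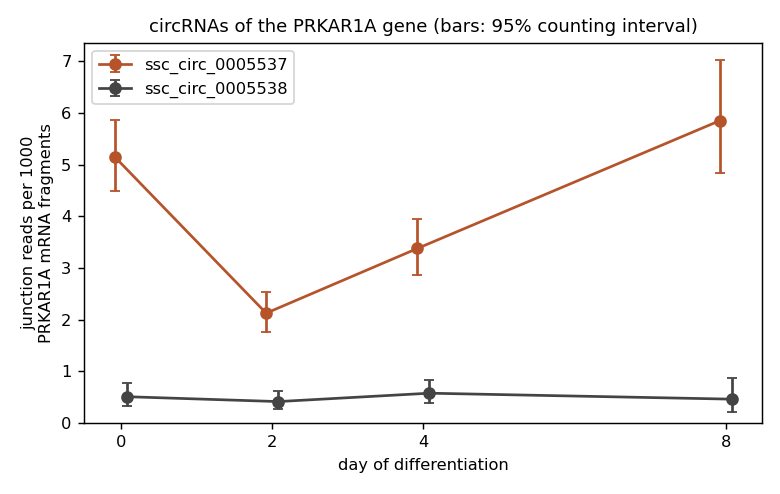
Junction reads per 1000 PRKAR1A mRNA fragments (y axis) against day of differentiation (x axis) for the 2 circular RNAs of the gene, with 95% counting intervals as bars. The line of ssc_circ_0005537 dips to 2.12 at D2 and reaches 5.85 at D8.

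Some genes overlap others on the opposite strand. PDE7B overlaps MTFR2 over 40601 bases, with 452, 80, 360 and 211 MTFR2 fragments. Against the 1441, 4956, 3506 and 435 fragments of PDE7B, MTFR2 was lowest at D2, where PDE7B was highest. PRKAR1A overlaps FAM20A over 743 bases, with at most 541 fragments of FAM20A at any stage. Antisense lncRNAs at PRKAR2B, PDE4B and PDE7B had at most 58 fragments in a library. The libraries were made with a strand-specific kit, but whether counting used the strand is not given in the sources used here, and if it did not, reads of such pairs cannot be told apart.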

How the data were processed

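Total RNA depleted of ribosomal RNA was sequenced with a strand-specific kit, 1 library per stage, each pooled from 3 piglets. The authors aligned reads to the pig genome (Sscrofa11.1) with HISAT2 2.0.5 and deposited FPKM for mRNAs and lncRNAs. For circular RNAs the authors used BWA-MEM and CIRI and deposited SRPBM, junction reads scaled by mapped reads. Both kinds of value share a column and were told apart by the biotype. The counting step is not given in the sources used here.

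The 9 genes and the gene lists were chosen with earlier results of these data known. The fragments behind each FPKM were recovered from the deposited values as whole multiples of the value of 1 fragment, for all 16192 mRNAs. The shortest gene length that made the 4 values whole was used, so for a few genes the true number may be a whole multiple of the one given, with a narrower interval. Ratios were taken on log2(FPKM + 0.01) for genes with an FPKM of 1 or more in 3 or 4 libraries, and 2-fold was counted without a test. Ratios have exact binomial, levels exact Poisson and shares of fragments Wilson 95% intervals, which cover counting error only. Named genes were the 9 genes, genes of the fixed lists that reached 2-fold in any comparison, whether or not they passed the filter, or were the highest of their list, and the 2 mRNAs nearest to each gene in profile. Of 122 genes named in the lists, 114 were found, and the others were not analysed here. Circular RNAs and overlapping genes were matched by coordinates. The values came from Python 3.11.15, numpy 2.4.6, pandas 2.3.3, scipy 1.17.1 and matplotlib 3.10.9, and the recovery was tested on simulated data. Pseudocounts, filters, scalings and the fold were varied. Sequences of promoters and proteins were not analysed here. The values of 1 gene of the lists are not reported here.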

Additional observations from a re-analysis of the deposited data

How the results depend on the processing

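No paired analysis was possible because each stage had a single library. The counts of the 9 genes that reached 2-fold were 3, 1, 3, 3 and 2 for D2 against D0, D4 against D2, D8 against D4, D4 against D0 and D8 against D0. Without the filter they became 5, 4, 6, 5 and 4, since receptors and PDE4D then entered. Of all 16192 mRNAs, 29.6%, 18.7%, 27.7%, 32.2% and 21.7% then reached 2-fold. At a ratio of 1.5 the counts became 5, 3, 4, 4 and 4 in the same order, beside 35.7%, 14.6%, 35.9%, 39.5% and 21.5% of the 9191 mRNAs. D4 against D2 gave 2 under the median-ratio scaling and under an equal protein-coding sum (PDE7B in addition). It also gave 2 under a filter of at least 100 fragments chosen after seeing the data (PDE4D in addition). That filter gave 4 for D8 against D4 and 3 for D8 against D0, again with PDE4D in addition. D8 against D0 gave 1 with a pseudocount of 1 and 1 with FPKM of at least 1 in all 4 libraries, both without PDE7B. The filter on all 4 libraries, which PDE7B did not pass, also gave 2 for D2 against D0, for D8 against D4 and for D4 against D0. With a pseudocount of 1, PDE7B had a log2 ratio of 0.92 for D4 against D0, and that comparison gave 2. The other pathway genes gave 15, 6, 16, 20 and 11 in the same order of comparisons, and 36, 17, 31, 38 and 26 without the filter. At a ratio of 1.5 they gave 27, 15, 25, 26 and 22 in that order. With a pseudocount of 1 they gave 12, 3, 11, 16 and 8, beside 12%, 2.95%, 8.33%, 13.9% and 4.5% of all mRNAs. With FPKM of at least 1 in all 4 libraries they gave 12, 4, 12, 16 and 8, beside 14.3%, 3.31%, 13%, 17.3% and 5.49%. No 2-fold ratio of the 5 genes that met the level changed its direction under the pseudocounts and scalings, and the ratio of PDE4B for D8 against D0, which was not 2-fold, moved from -0.04 to 0.11 under the median-ratio scaling.

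Over all mRNAs the 2-fold counts depended on the filter. Higher and lower mRNAs were 613 and 932 for D2 against D0, and 2038 and 2755 without the filter. They were 390 and 77 for D4 against D2 and 2007 and 1013 without it, 407 and 928 for D8 against D4 and 1778 and 2702, 958 and 810 for D4 against D0 and 2842 and 2379, and 331 and 338 for D8 against D0 and 1702 and 1808. At a ratio of 1.5 they were 1434 and 1845, 1072 and 272, 912 and 2384, 2020 and 1609, and 636 and 1340. With a pseudocount of 1 they were 233 and 38 for D4 against D2, 292 and 474 for D8 against D4 and 241 and 173 for D8 against D0, and with FPKM of at least 1 in all libraries 234 and 49 for D4 against D2. The median-ratio scaling gave 591 and 546 for D8 against D4 and 405 and 208 for D8 against D0. The cause was not tested where it is not the number of genes entered. Receptor values rest on at most 97 fragments.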

Other observations

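Genes of the pathway lists below the level used for the counts also differed between libraries. PPARGC1A, a coactivator known to be induced by cAMP, had 51 fragments at D0, 330 at D2, then 444 at D4 and 55 at D8. Its levels were 0.0403, 0.357, 0.355 and 0.0605 FPKM. PER1, also of the cAMP-induced list, had 0.586, 2.09, 1.56 and 0.795 FPKM. NR4A2 of that list went the other way, with 0.412, 0.152, 0.141 and 0.261 FPKM from 189, 51, 64 and 86 fragments. ADCY5, an adenylyl cyclase, had 0.108, 0.432, 1.19 and 0.671 FPKM and was highest at D4, like PRKAR2B. PDE1B, a calmodulin-dependent phosphodiesterase, had 228 fragments at D0 and 1 at D2, then 34 at D4 and 49 at D8. ADRA1B, an alpha-1 receptor, had 0.797, 0.194, 0.349 and 1.10 FPKM.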
